A study of Rattus norvegicus with 9 samples.

Results

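Cytokines of the interleukin-6 (IL-6) family, the colony-stimulating factors (CSFs) and the receptor chains through which the former act were examined in rat aortic smooth muscle cells (RASMC) with a blocked sodium pump. The 10 genes were *Il6*, *Lif*, *Il11*, *Clcf1*, *Csf1*, *Csf2* and *Csf3* for ligands and *Il6st*, *Lifr* and *Osmr* for receptors, out of 14324 gene symbols with a probe set of their own. They were named by family with earlier results of these data known, and their probe sets were chosen by the highest mean signal over all 9 arrays. Each of the 10 had only 1 such probe set, so that this choice had no effect. The identifiers were 10859799 for *Il6*, 10773853 for *Lif*, 10703953 for *Il11*, 10712853 for *Clcf1*, 10825869 for *Csf1*, 10742663 for *Csf2*, 10738051 for *Csf3*, 10813007 for *Il6st*, 10813445 for *Lifr* and 10821698 for *Osmr*.

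Expression was read on 9 rat whole-transcript arrays of Affymetrix, 1 per culture. After 6 hr, 3 cultures came from control DMEM, 3 had received 3 mM ouabain in DMEM, and 3 were kept in DMEM without K+. All groups were commercial primary RASMC below 10 passages that had been made quiescent for 24 hr in 0.2% serum and rinsed in K+-free medium, and no group carried a genetic change. Ouabain binds the α subunit of the Na+,K+-ATPase, whereas K+-free medium withholds the ion that this pump carries inward. The methods describe 3 independent experiments, so precision is limited by 3 arrays per condition. With these, an exact permutation test of a condition against another, counting both directions, cannot go below p = 0.1. The study used both treatments to raise the intracellular Na+/K+ ratio and set the transcripts that changed beside those of hypoxia, which was not analysed here.

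IL-6, LIF, IL-11 and CLCF1 signal through receptor complexes that contain gp130, the product of *Il6st*, which activates JAK kinases and the transcription factor STAT3. IL-6 and IL-11 first bind their own α chains, LIF engages the LIF receptor with gp130, and the OSMR chain pairs with gp130 to receive oncostatin M. The CSFs govern the growth and survival of myeloid cells: M-CSF, the product of *Csf1*, of macrophages, GM-CSF (*Csf2*) of granulocytes and macrophages, and G-CSF (*Csf3*) of neutrophils. Vascular smooth muscle is a known source of IL-6, LIF and M-CSF in the inflamed arterial wall.

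The deposited values are RMA signals on the log2 scale, where a difference of 1 is a doubling of signal. Array medians lay between 6.76 and 6.80. Smooth muscle markers were well detected: the mean of 7 of them was 9.77 to 9.82 on control arrays, 9.28 to 9.39 in ouabain and 9.45 to 9.49 in K+-free medium, with only *Des* under the array median. Of these 7, 5 fell in ouabain and 3 after K+ withdrawal, beside 16.8% and 17.9% of all probe sets. *Lmod1* fell by the widest margin (log2 -1.61 and -1.48). Of 9 macrophage markers, 8 lay below the array median in control cells and 7 under each treatment, and their mean was 5.90 to 5.95, 6.37 to 6.39 and 6.22 to 6.28 in control, ouabain and K+-free cells. *Ptprc*, *Itgam*, *Adgre1* and *Aif1* were below that median in every condition, while *Cd68* (1.29 and 0.94) and *Cd14* (1.27 and 0.43, the latter 0.27 and not called when centred on *B2m*) rose under each treatment. Of the 9, 4 were called higher in ouabain and 3 in K+-free medium, beside 15.8% and 16.1% of all probe sets, and 0 lower. The others called were *Csf1r* (0.33 and 0.53) and, in ouabain, *Mrc1* (0.34). Their ouabain calls were lost after repeated quantile normalization and when centred on reference genes or *B2m*. All 3 endothelial markers measured were below the array median, though *Cdh5* was called higher (0.40 in ouabain and 0.29 in K+-free medium). Its ouabain call was lost when centred on *B2m* (0.25). Its K+-free call was lost after repeated quantile normalization (0.2) and when centred on reference genes (0.17) or *B2m* (0.13). The mean of 5 fibroblast markers was 9.15 to 9.24 in control cells, 9.29 on each ouabain array and 9.57 to 9.60 in K+-free medium. Of these 5, *Pdgfra* differed by -0.06 in ouabain and rose by 1.30 in K+-free medium, where the other 4 differed by 0.00 to 0.29. In ouabain 0 of the 5 were called higher and in K+-free medium 2, beside 15.8% and 16.1% of all probe sets. The 2 were *Pdgfra* and *Lum* (0.29). The call of *Lum* was lost after repeated quantile normalization (0.26) and when centred on reference genes (0.17) or *B2m* (0.13). In bulk RNA fewer cells of a type and less RNA per cell cannot be told apart, and the part of other cells in the results below was not tested.

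Changes were tested with limma across all 27342 probe sets and called where the fold exceeded 1.2 and p, adjusted by Benjamini-Hochberg, was under 0.05. In ouabain 6 of the 10 genes rose against control, *Il6*, *Lif*, *Clcf1*, *Csf1*, *Lifr* and *Osmr*, where 15.8% of all probe sets rose and 16.8% fell. In K+-free medium 9 of the 10 rose, all but *Il11*, beside 16.1% rising and 17.9% falling overall. Set against ouabain directly, K+-free medium raised 8 of the 10, with the exceptions of *Il11* and *Lifr*, beside 8.45% higher and 7.97% lower overall. In limma, no gene of the 10 was called lower in any comparison. At an unadjusted p under 0.05 and no fold limit 0 were lower in ouabain, 0 in K+-free medium and 1, *Lifr*, in K+-free medium against ouabain. The median log2 difference of the 10 was 0.68 in ouabain, 2.05 in K+-free medium and 1.03 between the treatments, against 0.071, 0.060 and -0.008 over all probe sets. These counts include *Lif* and *Csf2*, whose values were known beforehand, and *Osmr*, which the study lists among its raised genes, and so describe the set without being a test of it. The treatments share the same 3 control arrays. Of all calls, 48.5% in ouabain and 47.3% in K+-free medium were upward, but 32.2% and 30.0% with signals centred on reference genes and 25.8% and 25.2% when centred on *B2m*. The numbers called among the 10 genes were the same under each of these scalings.

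**Figure D1:**
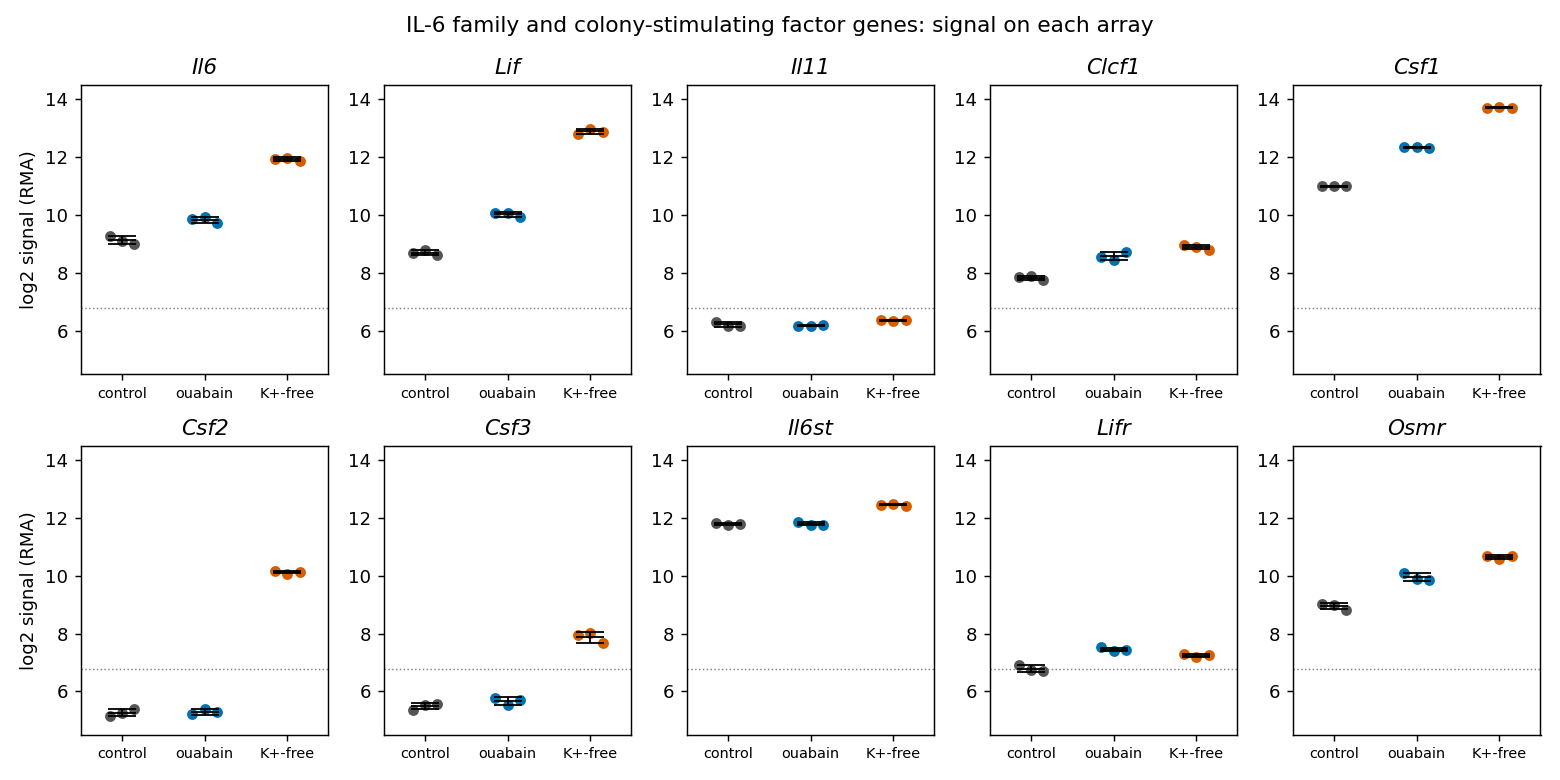
Log2 RMA signal (vertical axis) of the 10 genes on each of the 9 arrays, 3 per condition, with the mean and SD in black; the dotted line marks the middle of the array medians. *Csf2* and *Csf3* sat under that line in control and ouabain cells and above it in K+-free medium, whereas *Il11* stayed below it throughout.

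*Lif*, a pleiotropic cytokine that acts through LIFR and gp130, gained the most among the IL-6 family ligands. Its log2 signals were 8.70, 8.79 and 8.63 in control cells, 10.07, 10.07 and 9.93 in ouabain and 12.82, 12.97 and 12.88 in K+-free medium. The conditions thus formed 3 separate levels without overlap. The signal in ouabain was 2.5-fold and that in K+-free medium 18.2-fold the control, and K+-free medium stood 7.30-fold above ouabain (log2 difference 2.87, SE 0.065). The study named *Lif* for this difference on these same arrays, and its values are given as a description without a test.

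*Il6*, the founding member of the family and an inducer of the acute phase response, was measured at 9.27, 9.11 and 9.01 in control cells, 9.86, 9.93 and 9.71 in ouabain and 11.94, 11.99 and 11.87 in K+-free medium. Every ouabain array lay above every control array, and every K+-free array above both. The rise was 1.63-fold in ouabain (log2 0.70, SE 0.077, limma adjusted p = 1.87e-05) and 6.97-fold in K+-free medium (log2 2.80, adjusted p = 6.48e-10). The 4.28-fold gap between the treatments passed the test as well (log2 2.10, adjusted p = 2.01e-08).

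*Clcf1*, which encodes a ligand of the CNTF receptor complex, rose under both treatments with a small gap between them. Its signals were 7.86, 7.88 and 7.75 in control cells, 8.56, 8.44 and 8.73 in ouabain and 8.96, 8.90 and 8.80 in K+-free medium. The 3 conditions did not overlap, though the lowest K+-free array lay close to the highest ouabain array. The rises of 1.68-fold (limma adjusted p = 1.12e-05) and 2.08-fold (adjusted p = 6.04e-07) exceeded the spread between arrays. The difference of 0.31 between the treatments was called in K+-free medium's favour (SE 0.077, adjusted p = 0.0141), but the call was lost without ouabain replicate 2 (0.24) or without K_Free replicate 1 (0.27), and also after adjustment in the methods' t-test and in an unmoderated analysis of variance (0.31 in each).

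*Il11*, a ligand known for its part in fibrosis and bone turnover, was called in no comparison. All 9 arrays lay between 6.17 and 6.38, under the array medians. The log2 difference from control was -0.03 in ouabain (95% confidence interval -0.15 to 0.08) and 0.14 in K+-free medium (0.03 to 0.26, limma adjusted p = 0.0411), the latter past the p limit but under the fold limit, and -0.01 when centred on *B2m*. The 3 K+-free arrays, at 6.37, 6.34 and 6.38, were the highest of the 9.

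*Csf2* gave the largest response of the 10 genes to K+-free medium and none that passed the test in ouabain. Its signals were 5.14, 5.26 and 5.38 in control cells and 5.21, 5.41 and 5.28 in ouabain, overlapping and under the array medians, but 10.15, 10.07 and 10.14 in K+-free medium. The ouabain difference was 0.04 on the log2 scale (95% confidence interval -0.12 to 0.20, limma adjusted p = 0.693), and -0.11 when centred on *B2m*. That interval lies below the ouabain changes of *Il6* and *Lif*, which were far brighter in control cells. *Csf2* ranked at percentile 6.7 of all probe sets in control and 5.9 in ouabain. Background was not measured, which limits what signals this low can show of an ouabain response. K+-free medium stood 29.0-fold above control and 28.2-fold above ouabain (log2 4.82, SE 0.073). The latter had been seen before these genes were chosen, and both folds are given without a test.

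*Csf3* followed the same order at lower amplitude. It was measured at 5.37, 5.53 and 5.56 in control cells, 5.79, 5.52 and 5.72 in ouabain and 7.94, 8.03 and 7.66 in K+-free medium. Control and ouabain arrays overlapped, and the difference of 0.19 did not pass the test (95% confidence interval -0.04 to 0.42, limma adjusted p = 0.154). The rise in K+-free medium was 5.25-fold over control (adjusted p = 1.15e-08) and 4.60-fold over ouabain (adjusted p = 1.07e-07).

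*Csf1* was already bright in control cells and rose in equal steps. Its signals of 10.99, 10.99 and 11.00 in control cells became 12.35, 12.37 and 12.33 in ouabain and 13.70, 13.74 and 13.71 in K+-free medium, with SDs of 0.0056 to 0.023. The log2 gain was 1.36 in ouabain (2.56-fold, SE 0.045, limma adjusted p = 3.62e-09) and 2.73 in K+-free medium (6.62-fold, adjusted p = 3.93e-11). K+-free medium exceeded ouabain by 1.37 (2.59-fold, adjusted p = 8.91e-09). The K+-free mean ranked at percentile 99.7 of all probe sets, and whether signals that high were compressed was not tested.

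**Figure D2:**
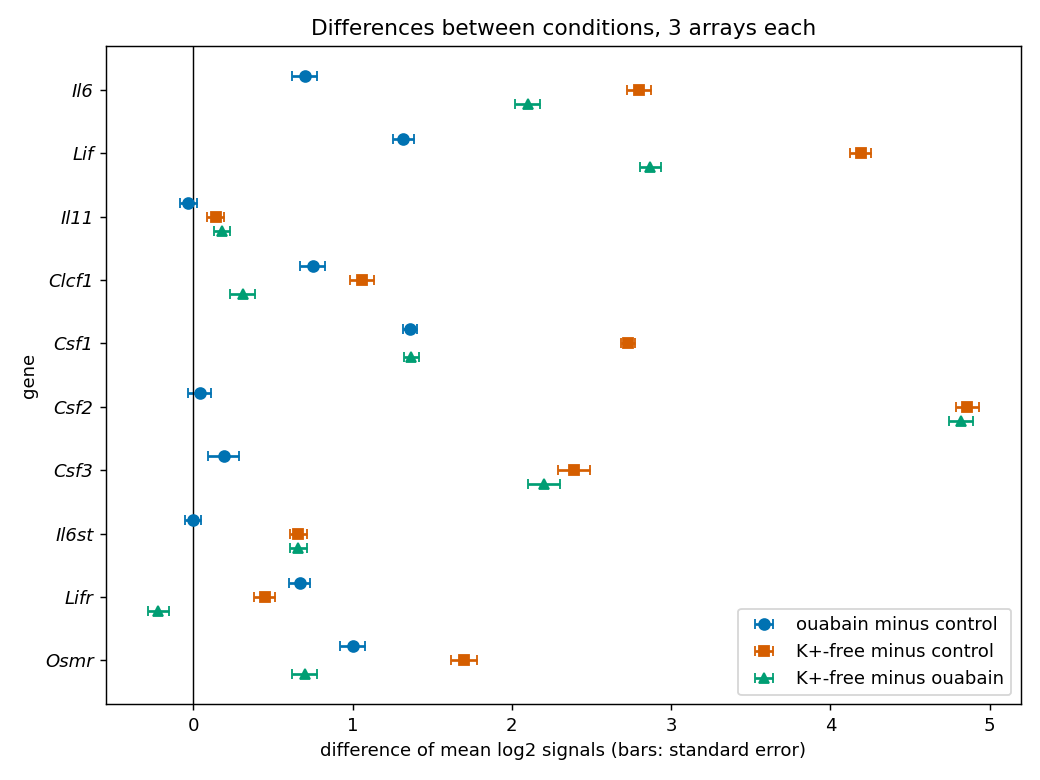
Difference of mean log2 signals (horizontal axis) for each of the 10 genes, as ouabain minus control, K+-free minus control and K+-free minus ouabain, with the standard error from limma. *Csf2* reached 4.86 in K+-free medium with 0.04 in ouabain, and *Lifr* was the only gene whose ouabain change (0.67) exceeded that in K+-free medium (0.45).

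Among the 3 receptors of the set, *Osmr* changed most against control. Its signals of 9.04, 8.98 and 8.83 in control cells rose to 10.11, 9.88 and 9.86 in ouabain and 10.70, 10.57 and 10.68 in K+-free medium, with no overlap between conditions. These were gains of 2.0-fold and 3.25-fold, which the study used to list the gene as raised and which are given without a test. The difference between the treatments was 0.70 on the log2 scale (SE 0.080). The study's listing rule also limited that difference, so it too is given without a test.

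*Il6st*, the gp130 chain common to the family, moved in K+-free medium alone by the test. Control arrays read 11.83, 11.76 and 11.80 and ouabain arrays 11.86, 11.76 and 11.76, a difference of 0.00 with a 95% confidence interval of -0.11 to 0.11. K+-free arrays read 12.46, 12.48 and 12.43, which was 1.58-fold over control (limma adjusted p = 9.15e-07) and 1.58-fold over ouabain (adjusted p = 5.11e-06). The spread between replicates was 0.028 to 0.057 (SD).

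*Lifr*, the partner of gp130 in the LIF receptor, was the exception to the order of the treatments. It rose from 6.91, 6.76 and 6.70 in control cells to 7.53, 7.41 and 7.42 in ouabain (1.59-fold, limma adjusted p = 7.94e-06) and to 7.29, 7.18 and 7.25 in K+-free medium (1.36-fold, adjusted p = 0.00018). All K+-free arrays lay below all ouabain arrays. That difference of -0.22 had an adjusted p of 0.0357 but stayed under the fold limit (95% confidence interval -0.36 to -0.07). In K+-free medium the ligand *Lif* thus gained 4.19 on the log2 scale while its receptor chains *Lifr* and *Il6st* gained 0.45 and 0.66.

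The receptor α chains and the remaining ligands were drawn from textbook lists. *Il6r*, which binds IL-6 itself, rose from 7.42, 7.32 and 7.42 in control cells to 9.53, 9.57 and 9.45 in ouabain and 10.17, 10.13 and 10.10 in K+-free medium, 4.37-fold and 6.71-fold. The study lists this gene as raised on these arrays, by a rule that also limited the difference between the treatments. No test is therefore given for *Il6r*, whose signals differed by 0.62 between the treatments. Among 4 such receptor chains, ouabain raised 1 and lowered 1, and K+ withdrawal raised 2 and lowered 1 (median log2 difference 0.13 and 0.23). Besides *Il6r* these were *Il11ra1*, the IL-11 receptor chain, which fell by 0.33 with ouabain and fell by 0.27 without K+ but was not called after repeated quantile normalization (-0.12 and -0.08), and *Cntfr*, which rose in K+-free medium (0.29) and was not called under 3 of the 4 scalings (0.13 to 0.25). Among 4 other ligands, ouabain raised 2 and lowered 1, and K+ withdrawal raised 1 and lowered 1 (median 0.26 and 0.07). Over all probe sets ouabain raised 15.8% and lowered 16.8%, and K+ withdrawal raised 16.1% and lowered 17.9%. Counts of 1 in a list of 4 are near these shares.

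*Ebi3*, the subunit that IL-27 and IL-35 have in common, was the ligand of that list with the largest change. It read 6.47, 6.51 and 6.56 in control cells, 6.87, 6.76 and 6.80 in ouabain and 8.36, 8.20 and 8.27 in K+-free medium, 3.39-fold over control (limma adjusted p = 1.97e-09) and 2.76-fold over ouabain (adjusted p = 3.38e-08). Its ouabain gain of 0.30 was not called when centred on reference genes (0.19) or *B2m* (0.14). The other called ligands, named after their values were seen, were *Ctf1*, cardiotrophin-1, which fell by 0.54 with ouabain and fell by 0.40 without K+ (not called after repeated quantile normalization, -0.24), and the neurotrophic factor *Cntf*, which rose by 0.61 with ouabain and stood at -0.04 without K+. *Osm*, the ligand of OSMR and likewise named after its values were seen, stayed under the array medians with differences of 0.23 and 0.19 that were not called.

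Receptors of the CSFs were dim. *Csf1r*, the M-CSF receptor and a macrophage gene, rose from 5.71 ± 0.048 (SD, n = 3) to 6.04 ± 0.050 and 6.24 ± 0.086, under the array median in each condition (limma adjusted p = 0.000724 and 1.73e-05), and the ouabain call was lost under 3 of the 4 scalings (0.18 to 0.23). *Csf2rb*, the signalling chain of the GM-CSF receptor, was called in neither comparison (0.17 and 0.23). Of the 3 receptors measured 2 rose in ouabain and 1 in K+-free medium (median 0.28 and 0.23), but none in ouabain under 3 of the 4 scalings. The other was *Csf3r*, the G-CSF receptor, named after its values were seen (0.28 in ouabain, and 0.13 to 0.18 under those scalings). Among 7 other haematopoietic growth factors 1 rose under each treatment, *Kitlg*, the ligand of KIT, named after its values were seen (0.82 and 0.60). The list's median was 0.17 and 0.13, and 1 of 7 is near the 15.8% and 16.1% of all probe sets that rose. Other calls appeared under some scalings, for genes also named after their values were seen. *Il15* (-0.17 and -0.25) was called lower when centred on reference genes (-0.27 and -0.37) or *B2m* (-0.32 and -0.41). *Il3* (0.26 in ouabain) was called higher there when centred on array medians (0.27).

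Genes of the JAK-STAT relay behind gp130 did not all change alike. *Stat3* rose from 11.09, 11.06 and 11.07 in control cells to 11.83, 11.82 and 11.81 in ouabain (1.68-fold, limma adjusted p = 2.47e-07) and 12.11, 12.02 and 12.02 in K+-free medium (1.97-fold, adjusted p = 2.82e-08). *Socs3*, a STAT3-induced inhibitor of gp130 signalling, rose 1.60-fold (adjusted p = 1.08e-06) and 1.95-fold (adjusted p = 6.43e-08). By contrast *Cish*, a STAT5-induced inhibitor, read 6.67, 6.59 and 6.60 in control cells, 6.19, 6.84 and 6.85 in ouabain and 9.23, 9.29 and 9.26 in K+-free medium, so that K+-free arrays alone stood apart (6.24-fold over control, adjusted p = 5.78e-08, and 6.20-fold over ouabain, adjusted p = 4e-07). The kinase gene *Jak2* behaved likewise, with log2 differences of 0.02 after ouabain and 1.31 after K+ withdrawal (2.48-fold, adjusted p = 2.31e-07).

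*Stat5a*, which transmits GM-CSF signals, fell by 1.23 with ouabain (limma adjusted p = 7.89e-07) and fell by 0.44 without K+, 0.79 apart (adjusted p = 9.45e-05). The K+-free call of *Stat5a* was lost after repeated quantile normalization (-0.25). Its paralogue *Stat5b*, named after its values were seen, was called lower under each treatment, by 0.62 with ouabain and 0.66 without K+. The treatments differed by -0.04 in *Stat5b* (limma adjusted p = 0.796), so the gap seen in *Stat5a* was not shared. Among 13 relay genes, ouabain raised 5 and lowered 3 (median 0.02), beside 15.8% raised and 16.8% lowered over all probe sets. K+ withdrawal raised 8 and lowered 2 (median 0.47), beside 16.1% and 17.9%. The falls were thus near the share over all probe sets. Set against ouabain, 6 were higher without K+. With signals centred on *B2m* the split became 4 and 4 in ouabain, with a median of -0.13, and 7 and 4 in K+-free medium.

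Textbook STAT3 targets, 14 of them measured, rose in 10 cases and fell in 1 with ouabain (median 0.36) and rose in 11 without K+ (median 0.84). Over all probe sets 15.8% rose and 16.8% fell with ouabain, and 16.1% rose without K+. Set against ouabain 8 of the targets were higher without K+, beside 8.45% of all probe sets. Of these 8, *Il4r*, named after its values were seen, had fallen with ouabain and was not called without K+ (-0.39 and -0.06). Centred on *B2m*, the rises numbered 5 and 9. The transcriptional repressor *Bcl6* gained 1.53 and 2.15, the kinase *Pim1* 0.88 and 1.71, the AP-1 subunit *Junb* 0.37 and 1.69, and *Cebpb*, an activator of acute phase genes, 0.71 and 1.10, the first value of each pair being the log2 change with ouabain and the second that without K+. Centred on *B2m*, the ouabain gain of *Junb* was 0.22 and not called. The study lists *Bcl6*, *Pim1* and *Junb* as raised on these arrays. *Timp1*, named after its values were seen, was bright in control, ouabain and K+-free cells (means 13.21, 13.13 and 13.22). It was called in no comparison (-0.08 and 0.00 against control). *Serpina3n* (0.22 and 0.39) and *Fgg* (0.00 and 0.10), acute phase genes of liver named after their values were seen, stayed under the array medians. Of these differences only that of *Serpina3n* without K+ was called, and not when centred on reference genes (0.27) or *B2m* (0.23). These genes answer to other factors as well as STAT3, and STAT3 activity was not measured.

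**Figure D3:**
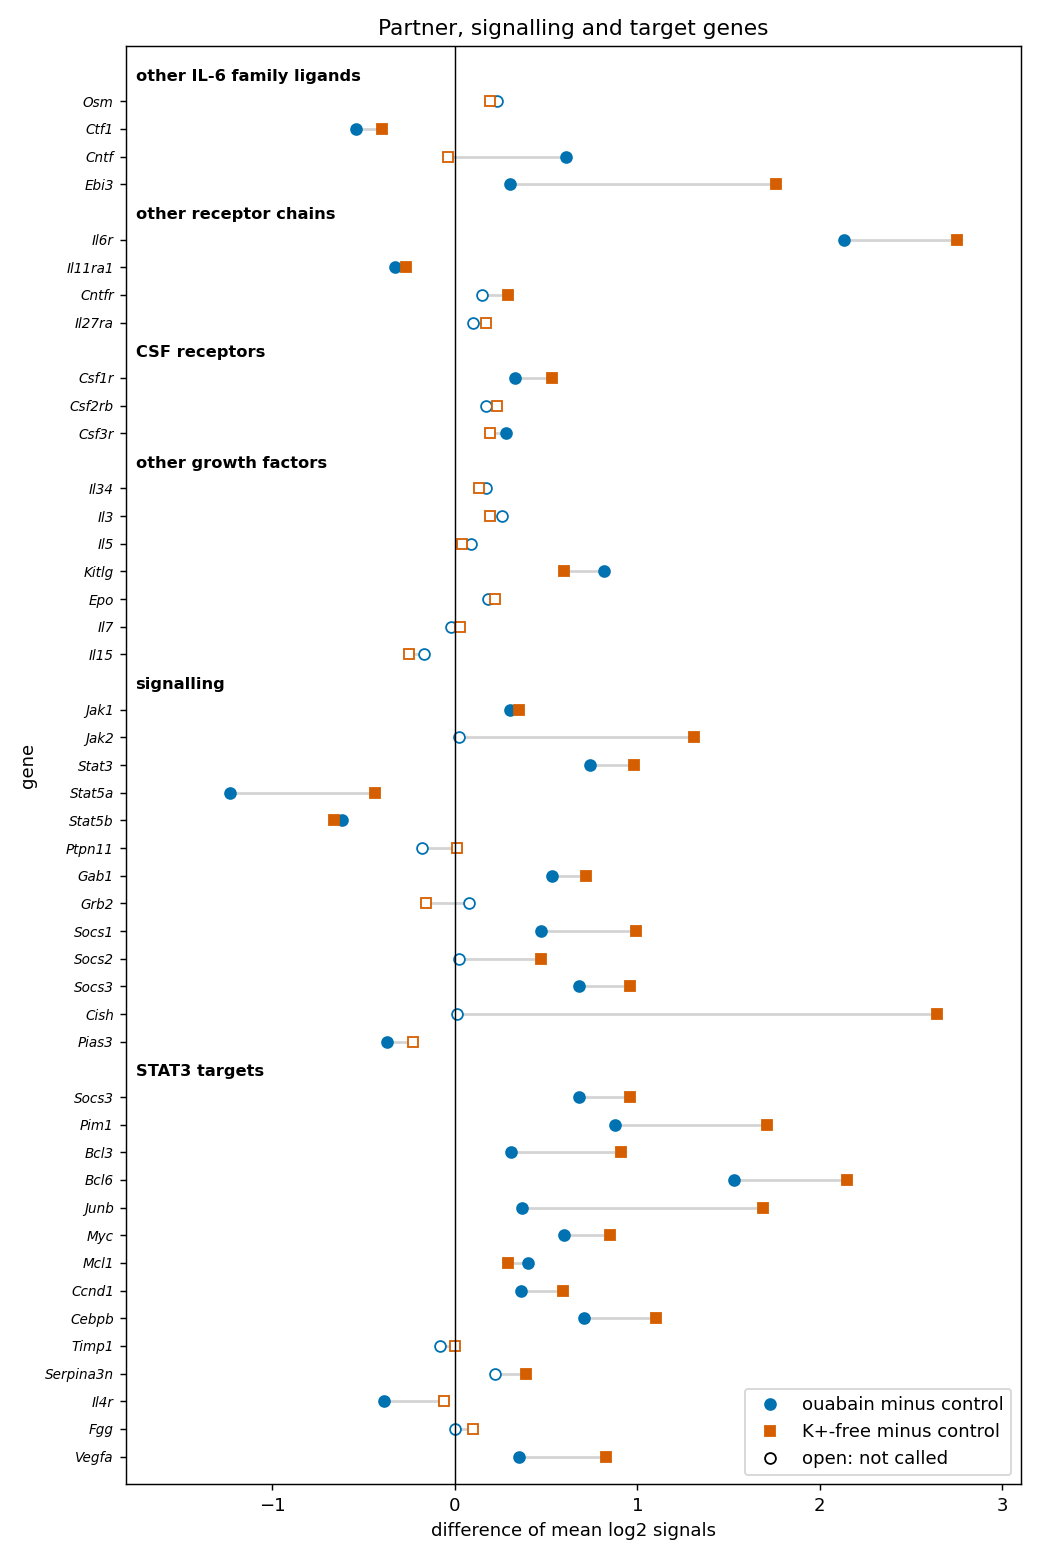
Difference of mean log2 signals from control (horizontal axis) for the listed partner, signalling and target genes, in ouabain (circles) and K+-free medium (squares); open symbols were not called. *Il6r*, *Cish* and *Bcl6* reached 2.75, 2.64 and 2.15 in K+-free medium, with 2.13, 0.01 and 1.53 in ouabain.

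Promoter sequence is shown for *Il6*, *Csf2* and *Il11*, which rose under both treatments, in K+-free medium only by the test, and in neither. The RefSeq windows of assembly GRCr8, present for 6 of the 10 genes, were read over the 250 bases before the start site. Both strands were searched for the NF-κB consensus of 10 letters, for AP-1 (TGANTCA), CRE (TGACGTCA), C/EBP (TTGCNNAA) and STAT (TTCNNNGAA). Capitals mark the matches, none of which overlap. The windows, 5′ to 3′ on the strand of the gene, are chr4:5894576-5894825 (minus strand) for *Il6*, chr10:38889674-38889923 (minus strand) for *Csf2* and chr1:78098372-78098621 (plus strand) for *Il11*.
Il6: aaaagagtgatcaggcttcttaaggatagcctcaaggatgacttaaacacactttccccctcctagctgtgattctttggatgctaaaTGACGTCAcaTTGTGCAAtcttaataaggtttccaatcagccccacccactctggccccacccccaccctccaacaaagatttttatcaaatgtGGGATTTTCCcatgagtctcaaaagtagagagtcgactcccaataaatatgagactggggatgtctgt
Csf2: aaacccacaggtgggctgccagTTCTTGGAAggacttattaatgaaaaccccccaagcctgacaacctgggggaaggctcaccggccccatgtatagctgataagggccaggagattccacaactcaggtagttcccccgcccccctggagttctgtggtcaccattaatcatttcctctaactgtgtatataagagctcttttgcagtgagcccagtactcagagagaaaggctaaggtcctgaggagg
Il11: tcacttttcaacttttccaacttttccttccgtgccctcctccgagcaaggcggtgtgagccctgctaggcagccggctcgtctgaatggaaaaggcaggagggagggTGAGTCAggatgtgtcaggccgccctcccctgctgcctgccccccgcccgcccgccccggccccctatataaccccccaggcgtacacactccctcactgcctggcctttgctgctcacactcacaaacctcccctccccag

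The *Il6* window held GGGATTTTCC, an NF-κB match that begins 68 bases before the start site, TGACGTCA at 162 bases (CRE) and TTGTGCAA at 152 bases (C/EBP, minus strand). Of 33469 rat promoter windows, 3.54% contain the NF-κB consensus, 1.59% the CRE and 9.22% the C/EBP motif. The *Csf2* window held a STAT match, TTCTTGGAA at 228 bases, found in 7.67% of windows, and the *Il11* window an AP-1 match, TGAGTCA at 142 bases, found in 6.34%. In the window of *Osmr* an AP-1 match lay 33 bases before the listed start, and those of *Il6st* and *Lifr* held none of the 5 motifs. A match describes the letters of a window and not the binding of a factor.

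The genes nearest to *Lif*, *Il6* and *Csf2* were sought by the Euclidean distance between their 9 log2 signals, each taken relative to its own control mean, among all 14324 symbols. Closest to *Lif* came the chemokines *Cxcl10* (distance 0.577) and *Cxcl1* (0.752), followed by the TNF family ligand *Tnfsf15* (1.36), the neutrophil chemokine *Cxcl3* (1.63) and the leukocyte adhesion molecule *Icam1* (1.65). *Cxcl10* gained 1.46 with ouabain and 3.92 without K+, beside 1.32 and 4.19 for *Lif*. Nearest to *Il6* were the copper carrier *Cp*, ceruloplasmin (0.555), the immediate early gene *Egr2* (0.626), the kinase *Ripk2* (0.646), the IκB family member *Nfkbiz* (0.713) and the prolyl hydroxylase *Egln3* (0.724). *Cp* gained 0.71 and 2.53, beside 0.70 and 2.80 for *Il6*. The neighbours of *Csf2* were farther off: the chemokines *Ccl20* (1.14) and *Cxcl6* (1.15), *Tnfsf15* (1.32), *Cxcl3* (2.23) and *Lif* (2.53). *Ccl20* gained 0.24 and 4.29, against 0.04 and 4.86 for *Csf2*. The order is a description over 9 arrays with common controls.

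**Figure D4:**
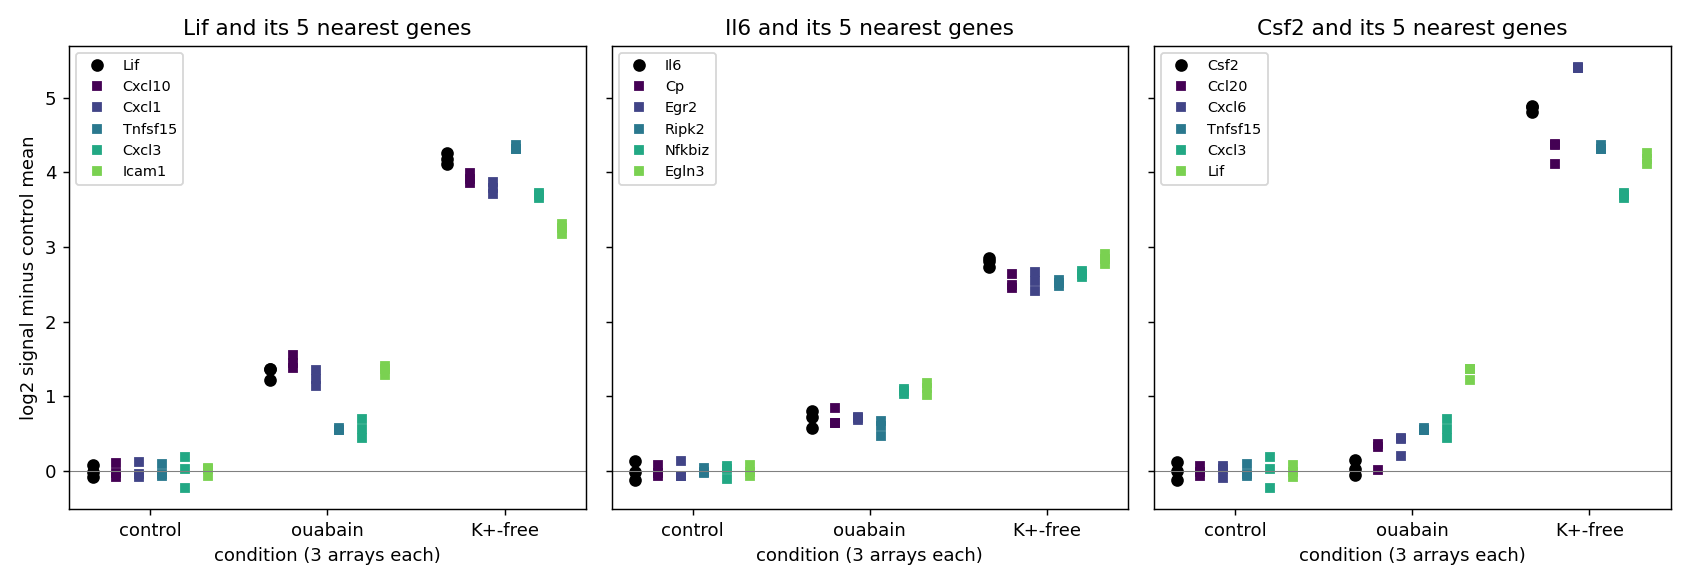
Log2 signal minus the mean of the 3 control arrays (vertical axis) in control, ouabain and K+-free cells, 3 arrays each, for *Lif*, *Il6* and *Csf2* (black circles) and the 5 genes nearest to each (coloured squares). *Lif* and *Cxcl10* run close together at 1.32 and 1.46 in ouabain, and *Csf2* stays near 0 there.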

How the data were processed

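RNA of 9 cultures, 3 per condition, had been hybridised to Affymetrix Rat Gene 1.0 ST arrays. The authors deposited log2 signals of 27342 probe sets, made with RMA and Partek per the labels, without stated versions. Another section of the methods names MAS5 and GeneSpring. The values had 0 gaps and were used without further scaling. Gene names came from GEO's platform annotation, updated through RefSeq: 15097 had 1 symbol, 323 several and 11922 none, and 15067 matched RefSeq. Conditions came from the sample labels.

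All 9 arrays entered a single linear model in limma 3.58.1 (R 4.3.3), with a mean for each condition and variances moderated towards a prior SD of 0.0815 on 4.59 degrees of freedom. The 3 contrasts were adjusted by Benjamini-Hochberg over all probe sets. The fit was tested on simulated data. The methods' analysis of variance and 1.2-fold limit guided this design. The 10 genes and the lists were chosen with earlier results of these data known; from each pathway list the called genes with an absolute log2 change of at least 1 were named, up to 4 a comparison, besides *Il6r*, *Csf1r*, *Csf2rb*, *Stat3* and *Socs3*, and the 5 nearest genes to each of *Lif*, *Il6* and *Csf2*. *Il11ra1*, *Cntfr* and the marker genes were named after their values were seen. Promoters were searched and plots drawn with Python 3.11.15 and matplotlib 3.10.9. Alternatives were other scalings, filters, variance models, tests and fold limits, a block for the replicate number and leaving out each array.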

Additional observations from a re-analysis of the deposited data

How the results depend on the processing

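Over all alternatives no gene of the 10 reversed a called direction, and 711 of 720 values of single genes kept their side of the threshold, while 6 lost and 3 gained a call. Much of that count was close to fixed in advance. With 1 probe set per gene, averaging probe sets or keeping those with 1 symbol left each difference unchanged. So did leaving out an array of the condition not compared. Other tests, variance models and fold limits could alter only the call. The losses were *Clcf1* between the treatments (0.31 in the ordinary analysis of variance, in the methods' t-test after adjustment and at a limit of 1.5-fold, 0.24 without ouabain replicate 2, 0.27 without K_Free replicate 1) and *Lifr* in K+-free medium at 1.5-fold (0.45). Without a fold limit *Il11* (0.14 and 0.18) and *Lifr* (-0.22) gained calls against control or ouabain. Leaving out each array in turn, 6 of the 10 were called in ouabain, 9 in K+-free medium and 7 to 8 between the treatments. The methods' t-test called 6, 9 and 8 at its unadjusted threshold and 6, 9 and 7 after Benjamini-Hochberg adjustment. By the methods, each experiment ran its controls and treatments side by side, but the labels do not say that a replicate number marks an experiment. Deviations of same-numbered arrays correlated at -0.0464 to 0.309, above 0.1 in 4 of 9 pairs. Those of differently numbered arrays correlated at -0.284 to 0.163. Because the labels leave the pairing open, the numbers were not taken as pairs. With the replicate block 6, 9 and 8 genes were called, as without it, and 26, 27 and 16 genes of the lists, again as without. An array correlated best with its own number in 12 of 18 cases, each a choice among the 3 arrays of another condition.

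Centring on *B2m* moved the median of all probe sets by -0.15 for ouabain and -0.16 for K+ withdrawal, and centring on reference genes by -0.10 and -0.12. These shifts mirror the references by construction: before centring, *B2m* was higher by 0.15 and 0.16, under the fold limit. Of 8 reference genes, *Hprt1* was called higher under each treatment (0.27 and 0.49) and *Tbp* in ouabain (0.36). Whether the references or the other genes had moved was not tested. Rises over all probe sets, 4312 and 4391, became 2166 and 2375 on *B2m*, 2626 and 2717 on reference genes, 2620 and 2641 among probe sets with 1 symbol, 2525 and 2551 with a gene's probe sets averaged, 6873 and 6858 without a fold limit and 1277 and 1578 at 1.5-fold, where falls went from 4583 and 4890 to 2647 and 2740. Between the treatments 2311 higher and 2180 lower became 647 and 502 at 1.5-fold and 1528 and 1368 in the adjusted t-test. Background was not measured here, which limits what the low signals of *Csf2*, *Csf3* and *Il11* can show.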
